A study of Mus musculus with 18 samples.

Results

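The Fc gamma receptor genes of the mouse are the subject of this account: Fcgr1, Fcgr3 and Fcgr4, which encode the activating receptors FcγRI, FcγRIII and FcγRIV, Fcgr2b, which encodes the inhibitory receptor FcγRIIB, Fcer1g, which encodes the common signalling chain of the activating receptors, and Fcgrt, which encodes the heavy chain of the neonatal receptor FcRn. They were chosen by gene name, and all 6 were found among the 21734 protein-coding genes of the table and passed the filter on low counts, as did 11357 genes in all. RNA was sequenced from bone marrow-derived macrophages (BMDMs), macrophages grown from marrow in M-CSF, of 3 mice of each of 3 genotypes: miR-146 wild-type (WT), miR-146 knock-out (KO), and 3′F, a non-seed swap in which miR-146a keeps its seed and bases 13 to 20 trade places with the bases that face them in the hairpin. BMDMs of each genotype were either left in fresh medium (resting) or given 1 ng/ml LPS, a bacterial ligand of TLR4, and all were harvested at 16 h, which makes 6 groups of 3 libraries. All mice were 6 to 7 months old and of a 129/B6 mix. KO and 3′F mice descend from targeted embryonic stem cells, the lines were backcrossed to C57BL6/J and kept separately, the WT mice came from both lines, and differences in background between them cannot be told apart from the alleles. The marrow cells were cultured for 8 to 9 days with M-CSF at 10 ng/ml before the change of medium.

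Fc gamma receptors bind the constant part of IgG and let a macrophage respond to opsonized particles and immune complexes. The activating receptors pair with the Fcer1g chain, whose ITAM is phosphorylated by Src family kinases and then recruits Syk, while FcγRIIB carries an ITIM that recruits the phosphatase SHIP and restrains that signal. FcRn stands apart from the others: it resembles an MHC class I molecule, pairs with β2-microglobulin and protects internalized IgG from degradation.

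The genotypes were made to differ at a single microRNA: KO lacks miR-146a, and 3′F carries an altered sequence of it. The paper also describes apparently higher miR-146b in KO BMDMs, but not in those of 3′F. The sequences are shown so that the seed that WT and 3′F share can be seen, with bases 2 to 8 in capitals. The WT sequence is that of RefSeq and lies on the minus strand at chr11:43374435-43374456 (GRCm38.p6), and the 3′F sequence is that of the mimic which the study designed, without the 2 deoxythymidines at its 3′ end.
WT miR-146a-5p: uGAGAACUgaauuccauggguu
3′F miR-146a-5p mimic: uGAGAACUgaauaagugucc
The first 12 bases were identical, and all 8 bases from position 13 to position 20 differed. The table of counts lists protein-coding genes, so miR-146a itself was not analysed here and the alleles were not checked at the RNA level.

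A match to bases 2 to 8 of that seed was looked for in the longest annotated 3′ UTR of each member (Gencode M21, mm10). Fcgr2b alone held one: the match sits at base 1050 of a 3′ UTR of 2397 bases, at chr1:170959957-170959964 on the minus strand, and an A after it extends it to 8 bases. It is shown with 10 bases on each side and the match in capitals.
Fcgr2b 3′ UTR: atgtaacaggAGTTCTCAggaagtcaaa
Only 1 of the 4 annotated coding transcripts of Fcgr2b contains it, and which of them these cells use was not analysed here. The other members had 3′ UTRs of 256 to 1367 bases without a match of 7 or of 6 bases. Among 11261 tested genes with an annotated 3′ UTR, 12.6% held the match of 7 bases, so a match of that length is a common feature and says only that the letters are there. The share with the match of 8 bases was not computed.

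In mm10, 4 of the members lie within 275.7 kb of chromosome 1. Fcgr2b (ENSMUSG00000026656) is at chr1:170958617-170976547 on the minus strand, Fcgr4 (ENSMUSG00000059089) at chr1:171018920-171029761 on the plus strand, and Fcgr3 (ENSMUSG00000059498) at chr1:171051174-171064935 and Fcer1g (ENSMUSG00000058715) at chr1:171229572-171234365 on the minus strand. Fcgr1 (ENSMUSG00000015947) is at chr3:96282909-96293969 and Fcgrt (ENSMUSG00000003420) at chr7:45092990-45103851, both on the minus strand. Fcgr3 and Fcgr2b resemble each other: 9.58% of the 1733 different stretches of 50 bases in the Fcgr3 transcripts also occur in transcripts of Fcgr2b, and 6.95% of those of Fcgr2b occur in Fcgr3 or other genes, while no stretch of Fcgr1, Fcgr4, Fcer1g or Fcgrt occurs in another gene. A read from a shared stretch cannot be assigned to one of the pair, and the authors' filter on mapping quality bears on such reads.

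The libraries held 4071084 to 19818043 counts, the lowest in resting 3′F replicate 3. Values below are CPM, counts scaled to a library of 1e+06 counts after TMM normalization, or CPM per kb of exon where genes are compared with each other. The smallest count of any member in a library was 153, for Fcgr4 in that shallowest library, so no member was near the floor of 3 counts. All 8 macrophage markers were detected in each of the 18 libraries and summed to between 31782 and 86603 CPM. The B cell list of 7 markers summed to at most 5.28 CPM, the NK cell list of 7 to at most 2.13, the T cell list of 6 to at most 11.4 (mostly Cd4), the dendritic cell list of 6 to at most 4.68, the mast cell and basophil list of 7 to at most 7.63 and the neutrophil list of 10 to at most 68.4. Cd3e, Gzma and Fcer1a were at 0 in all 18 libraries. In such bulk samples fewer cells of a type and less RNA per cell cannot be told apart.

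Within their groups 2 libraries stood apart. A list of 28 interferon response genes, such as Isg15 and Ifit1, summed to 19215 CPM in resting KO replicate 3, to 1526 and 1167 CPM in resting KO replicates 1 and 2, to 401 to 714 CPM in the resting WT and 3′F libraries, and to 5691 to 25721 CPM in the 9 libraries with LPS. On the first principal component of all tested genes resting KO replicate 3 scored 19.7, within the 17.4 to 70.6 of the libraries with LPS and above the -62.4 to -28.2 of the other 8 resting ones. Its expression thus went in part against its resting label, and whether the label is right was not tested. Results that rest on it are given below with and without it.
The other was resting 3′F replicate 3, the shallowest library, which scored 50.3 on the second component against -33.1 to 17.9 in the other 17. Its neutrophil list summed to 68.4 CPM and its dendritic cell list to 4.68, against 13.9 and 27.7 and against 0.96 and 0.81 in resting 3′F replicates 1 and 2, and their part in the results was not tested. Without it the same 4 members were called in the 3′F response to LPS, with log2 fold changes of 2.32 for Fcgr1, 1.65 for Fcgr4, 1.94 for Fcgr2b and 0.87 for Fcer1g.

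Resting cells: levels per length. In resting WT macrophages Fcgr3, the low-affinity activating receptor, was the most abundant member at 415 ± 39.0 CPM per kb (mean ± SD, n = 3), followed by Fcer1g at 287 ± 113. The ranges of these neighbours, 386 to 459 for Fcgr3 and 172 to 398 for Fcer1g, overlapped. Fcgr1, the high-affinity receptor, stood at 58.6 ± 10.7 CPM per kb and ranged from 47.67 to 69.1, and its lowest library met the highest of Fcgrt, which had 35.8 ± 10.6 and reached 47.85. Fcgr2b at 21.8 ± 3.27 and Fcgr4 at 20.9 ± 3.15 CPM per kb did not differ beyond their spread, and both ranges lay below that of Fcgrt, whose lowest library had 27.97. This order depends on the exon lengths, 3810 bases for Fcgr2b, and the transcripts in use were not analysed. Without length, resting WT cells had means of 83.1 CPM of Fcgr2b, 63.9 of Fcgrt and 26.2 of Fcgr4.
After LPS the order in WT was Fcer1g (445 ± 27.1 CPM per kb), Fcgr1 (389 ± 179), Fcgr3 (336 ± 81.7), Fcgr4 (104 ± 66.4), Fcgr2b (71.3 ± 12.5) and Fcgrt (25.9 ± 5.17). Fcer1g, Fcgr1 and Fcgr3 were then a group with ranges of 414 to 462, 201 to 558 and 245 to 403, and only the ranges of Fcer1g and Fcgr3 in it did not meet. Fcgr4 and Fcgr2b overlapped, and Fcgrt was below all other members in each WT library with LPS.

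**Figure D1:**
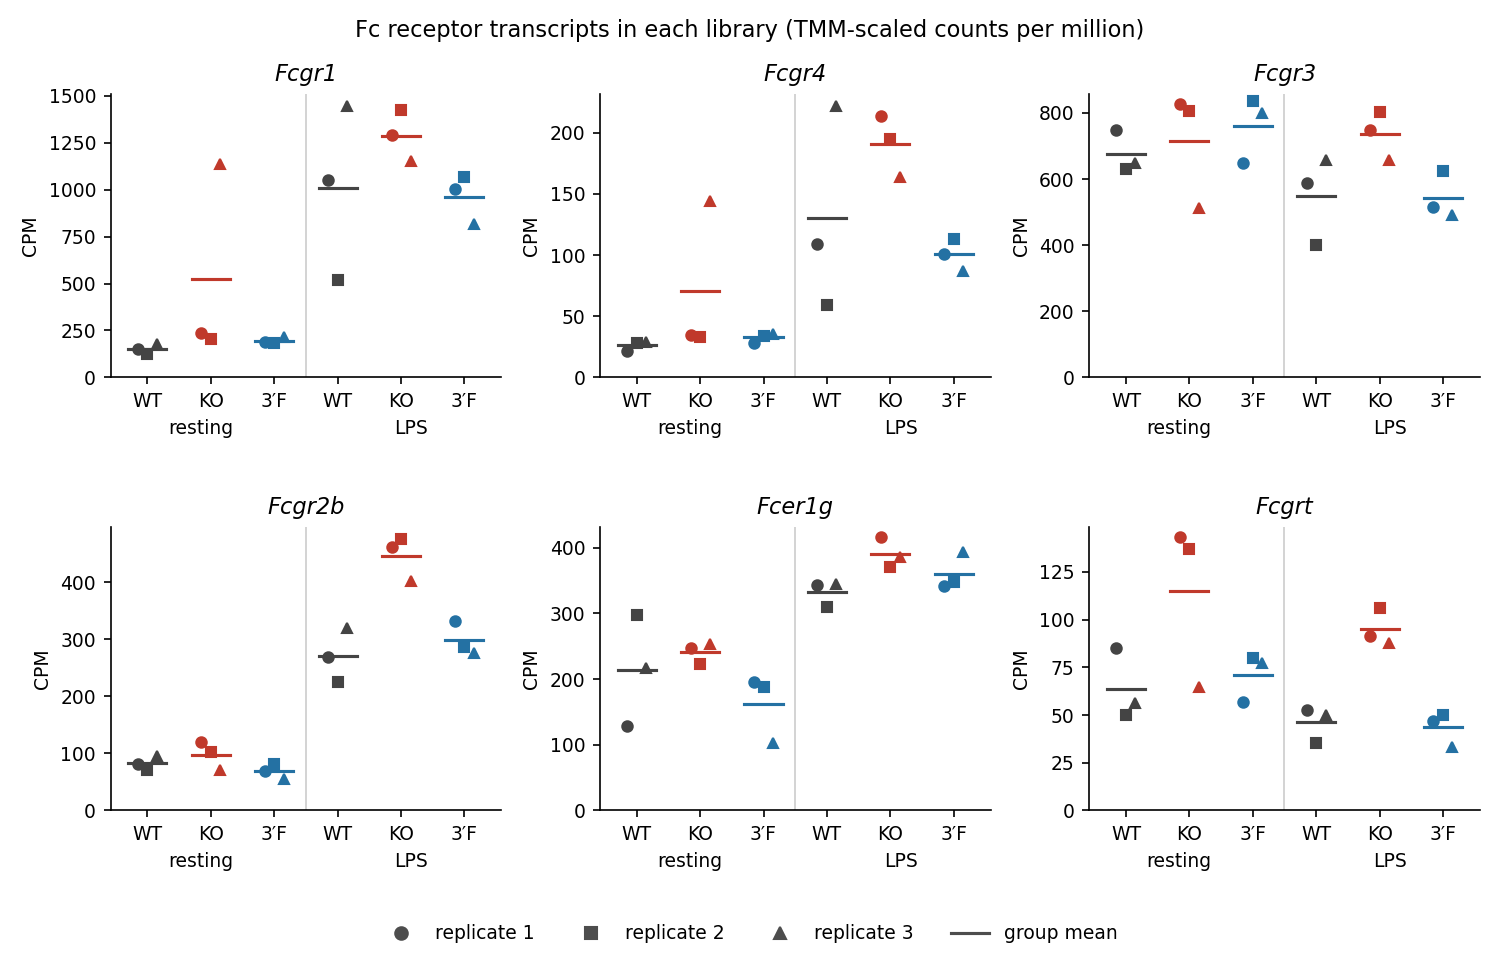
CPM of the 6 members in each of the 18 libraries, by genotype and state, with a line at the mean of each group of 3; each axis starts at 0. Fcgr1, Fcgr4, Fcgr2b and Fcer1g lie higher with LPS, Fcgr3 and Fcgrt do not, and resting KO replicate 3 has 1136 CPM of Fcgr1 and 144 CPM of Fcgr4, within the range of the libraries with LPS.

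The LPS response was taken in each genotype from a fit across all genes. In WT cells 3 of the 6 members rose, Fcgr1, Fcgr4 and Fcgr2b, and none fell, whereas 16.3% of all genes tested rose and 12.3% fell. In KO cells 3 members rose (Fcgr4, Fcgr2b and Fcer1g) against 14.3% of all genes, and none fell against 12.6%. In 3′F cells 4 members rose (Fcgr1, Fcgr4, Fcgr2b and Fcer1g) against 17.2%, and none fell against 14%. That none fell holds for this fit: in 3′F cells DESeq2 and limma-voom each called all 6 members, with Fcgr3 and Fcgrt lower. The shares of all genes given here are those of the main fit and were not taken for the other tools. In WT cells each of those tools called 4 members, Fcer1g being added, and in KO cells limma-voom called 5, among them Fcgrt as lower (-0.55, adjusted p = 0.0113). Libraries of 1 genotype with the same replicate number may come from the same mouse, which the labels do not state, and values with the number as a block are given where they change a call. The median log2 fold change of the 6 members was 1.17 in WT, 0.99 in KO and 1.39 in 3′F, beside 0.02, 0.02 and -0.01 over all genes tested. Adjusted p-values below are from edgeR's quasi-likelihood test with Benjamini-Hochberg adjustment over all genes tested.

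Fcgr1 gave 153, 123 and 179 CPM in resting WT replicates 1 to 3, and 1053, 521 and 1446 CPM with LPS. Every library with LPS was above every resting one, although the former differed among themselves by more than the resting ones did. The log2 fold change was 2.73 ± 0.51 (SE, adjusted p = 0.000893), a 6.63-fold rise. In 3′F cells the resting libraries had 189, 184 and 215 CPM and those with LPS 1005, 1065 and 817, again without overlap, for a log2 fold change of 2.30 ± 0.50 (adjusted p = 0.00266). In KO cells the libraries with LPS were close together at 1288, 1424 and 1151 CPM, but of the resting ones replicates 1 and 2 had 236 and 206 CPM and replicate 3 had 1136, just under the lowest with LPS. The log2 fold change of 1.29 ± 0.49 in KO cells did not pass the test (adjusted p = 0.0595), while without resting KO replicate 3 it was 2.54 (adjusted p = 1.11e-05). With the replicate number as a block it also passed (1.801, adjusted p = 0.015), as it did in limma-voom (2.40, adjusted p = 5.5e-07), and with no low-count filter (1.26, adjusted p = 0.033).

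Fcgr4, a receptor of mouse myeloid cells for IgG2a and IgG2b, behaved much as Fcgr1 did at a lower level. Resting WT libraries had 21.7, 27.9 and 29.0 CPM and WT libraries with LPS 109, 59.2 and 222 CPM, which did not overlap. The log2 fold change was 2.31 ± 0.50 (adjusted p = 0.00251), or 4.97-fold. In 3′F cells 28.3, 34.0 and 35.8 CPM at rest stood against 101, 113 and 87.0 CPM with LPS, a log2 fold change of 1.63 ± 0.49 (adjusted p = 0.0193). That call was lost without resting 3′F replicate 1 (log2 fold change 1.53, adjusted p = 0.056) and without 3′F replicate 2 with LPS (1.54, adjusted p = 0.0563). KO cells had 34.9, 32.7 and 144 CPM at rest and 214, 195 and 164 CPM with LPS, so that replicate 3 was the highest resting library and still below all 3 with LPS. The log2 fold change of 1.45 ± 0.48 passed the test (adjusted p = 0.034) and was 2.497 without resting KO replicate 3 (adjusted p = 8.91e-05). It did not pass without resting KO replicate 1 or 2 or without KO replicate 1 or 2 with LPS (log2 fold changes of 1.11 to 1.40, adjusted p from 0.0805 to 0.141), nor with only the groups compared in the fit (adjusted p = 0.126).

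Fcgr2b, the inhibitory receptor, rose in every genotype and with the smallest error of the members that rose. WT libraries had 81.8, 71.4 and 96.2 CPM at rest and 270, 225 and 320 CPM with LPS, KO libraries 119, 103 and 71.7 and then 462, 477 and 403, and 3′F libraries 69.0, 82.3 and 54.8 and then 333, 287 and 277. In no genotype did the states overlap, and the lowest of the 9 libraries with LPS was above the highest of the 9 resting ones, which was KO replicate 1. The log2 fold changes were 1.71 ± 0.19 in WT (adjusted p = 9.36e-06), 2.19 ± 0.20 in KO (adjusted p = 7.31e-07) and 2.11 ± 0.20 in 3′F (adjusted p = 1.18e-06). These calls remained without any 1 library of the groups compared, with log2 fold changes from 1.58 to 1.83 in WT, 2.01 to 2.35 in KO and 1.94 to 2.27 in 3′F. Resting KO replicate 3, which was high for Fcgr1 and Fcgr4, was the lowest resting KO library for Fcgr2b.

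Fcer1g, the ITAM-bearing γ chain, changed less than the receptors that rose. With LPS it had 343, 309 and 345 CPM in WT, 417, 371 and 386 in KO and 342, 347 and 393 in 3′F, a narrow range of 309 to 417 over 9 libraries. At rest it ranged more widely: 129, 298 and 217 CPM in WT, 248, 224 and 253 in KO, and 195, 188 and 103 in 3′F. The states did not overlap in any genotype. The rise passed the test in 3′F (log2 fold change 1.15 ± 0.24, adjusted p = 0.00216) and in KO (0.69 ± 0.24, adjusted p = 0.0425), and in WT the value was 0.63 ± 0.24 (adjusted p = 0.0598). The KO call was lost without any 1 of its 6 libraries other than resting replicate 3 (log2 fold changes of 0.64 to 0.71, adjusted p from 0.0808 to 0.129), and with the replicate number as a block (adjusted p = 0.0645), with no low-count filter (0.0658) and with other size factors (0.056), and the WT value passed without resting WT replicate 2 (0.95, adjusted p = 0.0114).

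Fcgr3 and Fcgrt were the members without a rise in any genotype. Fcgr3 had 748, 629 and 650 CPM in resting WT libraries and 588, 400 and 657 with LPS, which overlapped, and the log2 fold change was -0.30 ± 0.20 (adjusted p = 0.275, 95% interval -0.71 to 0.11). In KO cells 827, 807 and 514 CPM stood against 749, 802 and 656, a log2 fold change of 0.04 ± 0.19 (adjusted p = 0.908) whose sign was not stable: it was -0.15 without resting KO replicate 3 and also below 0 under other size factors. In 3′F cells 648, 837 and 799 CPM at rest were all above the 514, 625 and 492 CPM with LPS, with a log2 fold change of -0.49 ± 0.20 that did not pass (adjusted p = 0.0695) and that passed without resting 3′F replicate 1 (-0.59, adjusted p = 0.0484). It also passed in DESeq2 (-0.51, adjusted p = 0.0363), in limma-voom (-0.52, adjusted p = 0.00429), with only the groups compared (-0.52, adjusted p = 0.0439) and with the replicate number as a block (-0.49, adjusted p = 0.036).
Fcgrt, the FcRn heavy chain, was the least abundant member with LPS. It had 85.3, 49.8 and 56.5 CPM in resting WT and 52.7, 35.6 and 49.99 with LPS, 143, 137 and 64.9 in resting KO and 91.6, 106 and 87.6 with LPS, and 56.7, 79.7 and 77.02 in resting 3′F and 47.1, 50.2 and 33.1 with LPS. Only in 3′F did the states not overlap, and in KO the overlap came from resting replicate 3 alone. The log2 fold changes were -0.47 ± 0.27 in WT (adjusted p = 0.213), -0.28 ± 0.27 in KO (adjusted p = 0.477) and -0.70 ± 0.27 in 3′F (adjusted p = 0.0609), and that of 3′F passed without resting 3′F replicate 1 (-0.84, adjusted p = 0.0424). The 3′F value passed in 5 of the 6 other settings as well: DESeq2 (-0.74), limma-voom (-0.67), no low-count filter (-0.71), only the groups compared (-0.74) and the replicate block (-0.70), with adjusted p from 0.00473 to 0.0497. Without resting KO replicate 3 the KO value was -0.56 and did not pass (adjusted p = 0.0624).

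**Figure D2:**
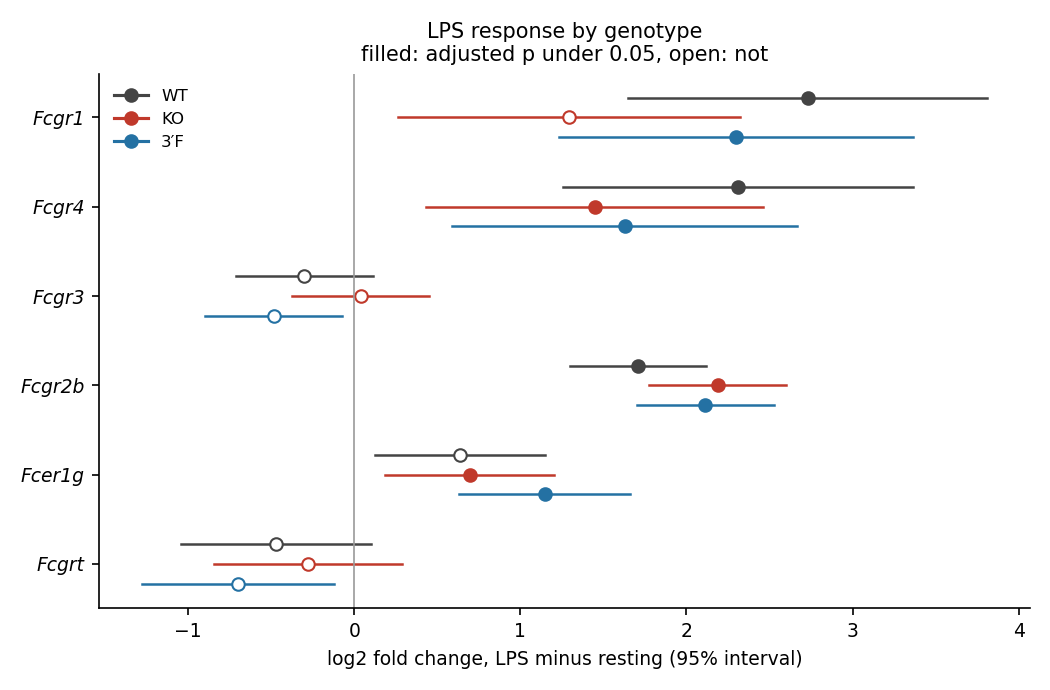
Log2 fold change with LPS of each member in WT, KO and 3′F cells, with 95% intervals; filled points passed an adjusted p of 0.05. Fcgr2b lies between 1.71 and 2.19 with the narrowest intervals of the members that rose, Fcgr1 and Fcgr4 have wide ones, and the intervals of Fcgr3 and Fcgrt lie at or below 0.45.

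Whether the responses differ between genotypes was tested as an interaction of LPS and genotype. It was called for 0 of 6 members for KO against WT and for 0 of 6 for 3′F against WT by edgeR, which called 0.00881% and 0% of all genes tested. An unadjusted p under 0.05 was reached by 0 members in either, and by 560 and 203 of the 11357 genes tested. DESeq2 and limma-voom called 0 members as well. The largest difference was that of Fcgr1 in KO, whose response was smaller than that of WT by 1.44 ± 0.68 on the log2 scale (95% interval from -2.88 to 0.01). Without resting KO replicate 3 the value was -0.19, so its size rested on that library.

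Activating and inhibitory receptor transcripts were next compared within each library, as a ratio of counts per kb of exon, which needs no scaling between libraries. The exon length of Fcgr2b, 3810 bases, is a single value for the gene. If these cells use shorter Fcgr2b transcripts, the ratios in each state are overstated, while their log2 change with LPS does not depend on the length used. At rest Fcgr3 exceeded Fcgr2b by 19.3 ± 3.03 in WT, 17.1 ± 1.09 in KO and 26.6 ± 6.55 in 3′F (ratio, mean ± SD, n = 3). With LPS the ratio was 4.68 ± 0.48 in WT, 3.85 ± 0.08 in KO and 4.29 ± 0.75 in 3′F. The 9 resting libraries ran from 15.8 to 34.1 and the 9 with LPS from 3.61 to 5.10, so the states were far apart in each genotype. The mean log2 ratio fell by 2.27, a 4.82-fold drop (exact permutation of the states within genotypes, two-sided, p = 0.00025, the smallest that 8000 relabellings can give, adjusted over 3 ratios p = 0.00075). The log2 fold changes of the 2 genes given above were 1.71 to 2.19 for Fcgr2b and -0.49 to 0.04 for Fcgr3.
The ratio of Fcgr4 to Fcgr2b averaged 0.97 ± 0.20 in resting WT and 1.38 ± 0.67 with LPS, 2.65 ± 2.98 and 1.29 ± 0.10 in KO, and 1.49 ± 0.42 and 1.02 ± 0.15 in 3′F. The mean log2 difference of -0.18 did not pass (exact permutation, two-sided, adjusted p = 0.686) and turned to 0.13 without resting KO replicate 3 (adjusted p = 0.553). The ratio of Fcgr1 to Fcgr2b averaged 2.68 ± 0.12 in resting WT and 5.27 ± 1.67 with LPS, 9.71 ± 11.8 and 4.23 ± 0.15 in KO, and 4.37 ± 1.27 and 4.75 ± 0.62 in 3′F. Its log2 difference was 0.20 (exact permutation, two-sided, adjusted p = 0.686), and without resting KO replicate 3, where the ratio was 23.3, it was 0.54 and passed (adjusted p = 0.0064).

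**Figure D3:**
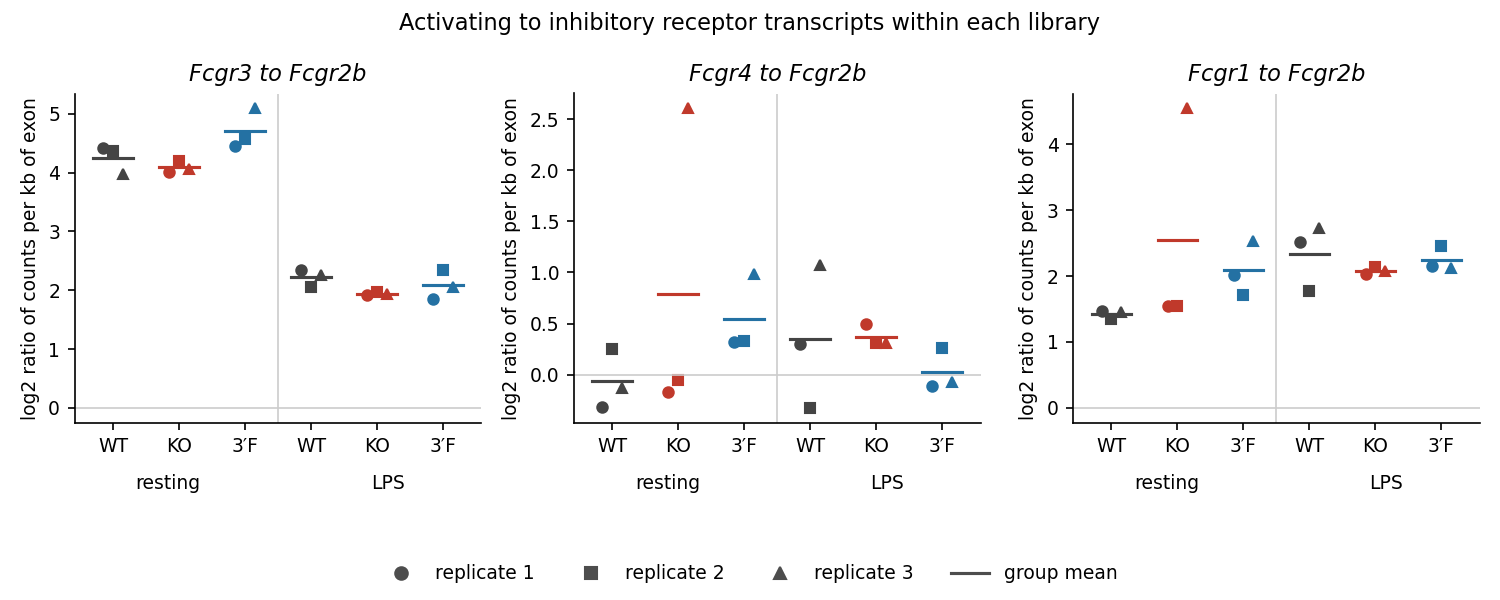
Log2 ratio of Fcgr3, Fcgr4 and Fcgr1 to Fcgr2b, each in counts per kb of exon, in every library, with group means as lines. The ratio of Fcgr3 to Fcgr2b is lower in all 9 libraries with LPS than in all 9 resting ones, while the ratios of Fcgr4 and Fcgr1 are highest in resting KO replicate 3.

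Resting KO replicate 3 separated the members. Its Fcgr1 level of 1136 CPM was 5.15-fold the mean of the other 2 resting KO libraries, above the 123 to 236 CPM of the other 8 resting libraries and within the 521 to 1446 CPM of the 9 with LPS. Its Fcgr4 level of 144 CPM was 4.26-fold that mean and likewise within the range with LPS (59.2 to 222 CPM) and above the other resting libraries (21.7 to 35.8 CPM). Fcgr2b (71.7 CPM) and Fcer1g (253 CPM) lay within the other resting libraries, at 54.8 to 119 and 103 to 298 CPM, and below every library with LPS. Fcgr3 (514 CPM) was below all 8 other resting libraries, and Fcgrt (64.9 CPM) was at 0.46 of the mean of the other 2. The high Fcgr1 and Fcgr4 of that library thus went with a high interferon response list and without the rise in Fcgr2b seen with LPS.
Among the 9 libraries with LPS, log2 CPM of Fcgr1 and the log2 summed CPM of the interferon list had a Pearson r of 0.97 (Spearman rho 0.97), and 0.95 without the 2 libraries farthest from the median of the list. For Fcgr4 r was 0.96 (rho 0.93) and 0.91 without those 2. For Fcgr2b it was 0.79 (rho 0.77) and 0.91, for Fcgr3 0.90 (rho 0.90) and 0.91, for Fcgrt 0.73 (rho 0.65) and 0.96, and for Fcer1g 0.47 (rho 0.35) and 0.25. Among the 9 resting libraries r was 0.96 for Fcgr1 and 0.94 for Fcgr4, and fell to 0.55 and 0.39 without the 2 farthest libraries, so at rest the relation rested on those. For the other members r at rest was 0.09 for Fcgr2b, 0.10 for Fcgrt, 0.41 for Fcer1g and -0.59 for Fcgr3, and 0.56, 0.53, 0.28 and 0.12 without those 2. These are descriptions over libraries that share genotypes, depth and scaling.

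**Figure D4:**
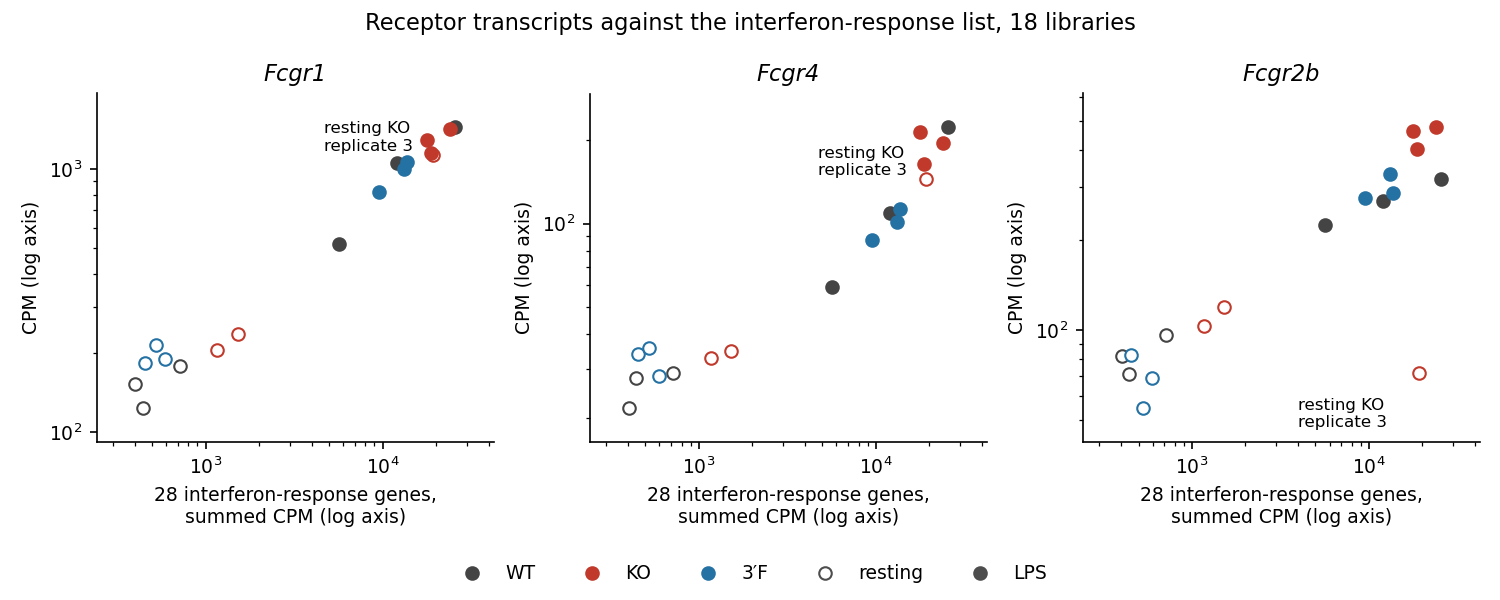
CPM of Fcgr1, Fcgr4 and Fcgr2b (log axis) against the summed CPM of 28 interferon response genes (log axis) in 18 libraries; open points are resting and filled ones with LPS. Resting KO replicate 3, at 19215 CPM of the list, lies among the libraries with LPS for Fcgr1 and Fcgr4 and among the resting ones for Fcgr2b.

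The promoters of 4 of the receptors are shown because Fcgr1 and Fcgr4 parted from Fcgr2b and Fcgr3 in that library. Each is the 150 bases before the RefSeq start (GRCm38.p6), 5′ to 3′ on the strand of the gene, with the match to 1 motif in capitals: a gamma-activated site in Fcgr1 (chr3:96293970-96294119, minus strand), an interferon-stimulated response element in Fcgr4 (chr1:171018776-171018925, plus strand), an NF-kB match in Fcgr2b (chr1:170976072-170976221, minus strand) and a C/EBP match, on the opposite strand, in Fcgr3 (chr1:171059404-171059553, minus strand).
Fcgr1 promoter: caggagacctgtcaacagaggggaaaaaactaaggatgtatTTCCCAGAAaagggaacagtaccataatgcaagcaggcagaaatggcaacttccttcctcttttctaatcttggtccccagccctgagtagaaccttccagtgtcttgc
Fcgr4 promoter: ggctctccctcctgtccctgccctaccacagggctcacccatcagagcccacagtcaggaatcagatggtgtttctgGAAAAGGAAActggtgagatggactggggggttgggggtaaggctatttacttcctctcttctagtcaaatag
Fcgr2b promoter: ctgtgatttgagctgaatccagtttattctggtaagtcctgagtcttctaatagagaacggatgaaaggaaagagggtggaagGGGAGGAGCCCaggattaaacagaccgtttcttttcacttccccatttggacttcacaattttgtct
Fcgr3 promoter: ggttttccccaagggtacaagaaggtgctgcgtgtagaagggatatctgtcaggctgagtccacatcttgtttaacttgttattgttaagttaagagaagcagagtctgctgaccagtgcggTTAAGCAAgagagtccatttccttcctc
Letters were searched on both strands in the 250 bases before the start of 32851 RefSeq promoters, which include all 6 members. The RefSeq starts of Fcgr2b, Fcgr3 and Fcgr4 lie inside the Gencode spans given above for these genes. Motif positions in them therefore depend on the start used. The gamma-activated site, TTCNNNGAA, was found 109 bases before the start of Fcgr1 and in no other member, and 7.02% of all promoters held it. The interferon-stimulated response element, here GAAA, any 2 bases and GAAA, was found 73 bases before the start of Fcgr4 alone, and 2.98% held it. GAGGAAG, the core of the macrophage factor PU.1, was found on the reverse strand at 56 bases in Fcgr1, 23 in Fcgr4 and 7 in Fcgr3, against 10.6% of all promoters. The NF-kB form GGG, any 5 bases and CC, found in Fcgr2b, Fcgr3, Fcgr4 and Fcer1g, is held by 45.8% of promoters, partly as matches that overlap each other on the 2 strands. Its matches within the stretches shown for Fcgr3 and Fcgr4 were left in lower case, so the capitals do not set Fcgr2b apart. TTGCNNAA (C/EBP) was in Fcgr3 and Fcgrt against 9.56%, and TGANTCA (AP-1) was in no member against 6.75%. The motifs were picked with these promoters already seen, and a match is a run of letters, not a site shown to be bound.

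The genes whose levels most resembled those of a member over the 18 libraries were sought among 10139 genes with an average log2 CPM of at least 1. For Fcgr1 they were Gbp9, Tor3a and Dhx58 (Pearson r of 0.99 each), and for Fcgr4 Fgl2, Fndc3a and G3bp2 (0.99, 0.99 and 0.99). For Fcgr2b they were Socs3, Acvr1b and Slc31a1 (0.99, 0.98 and 0.98), and for Fcer1g the actin regulators Pfn1, Rhog and Cfl1 (0.98, 0.97 and 0.97). Fcgr3 was most like Sesn1, Fcrls and Wls (0.91, 0.86 and 0.84), and Fcgrt most like Csad, Gabpb2 and Samd1 (0.90, 0.90 and 0.89). Between members r was highest for Fcgr1 with Fcgr4 (0.98) and was 0.83 for Fcgr3 with Fcgrt, while Fcgr3 with Fcer1g gave -0.41. The libraries fall into a resting and an LPS set, which these values share.

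KO was compared with WT in each state to ask how these transcripts differ in cells without miR-146a. At rest, Fcgr1 was the 1 member of 6 that was called, and it was higher in KO, where 5.12% of all genes tested were higher and 4.27% lower. With LPS 2 members, Fcgr2b and Fcgrt, were higher in KO, against 1.89% of all genes, and none was lower, against 2.9%. Per-library values are those given above.

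Resting KO cells had a mean of 526 ± 529 CPM of Fcgr1 against 152 ± 27.8 in resting WT, and each KO library was above each WT library. The log2 difference of 1.79 ± 0.49 (adjusted p = 0.0321) was 0.54 without resting KO replicate 3 (adjusted p = 0.286). It was also no longer called without any 1 of the resting WT libraries (1.66 to 1.93, adjusted p from 0.0674 to 0.123), in limma-voom (0.65, adjusted p = 0.0949) or with only the groups compared (1.76, adjusted p = 0.188). Fcgr4 gave 1.42 ± 0.49 (adjusted p = 0.0811) and 0.37 without that library (adjusted p = 0.614), and it passed without resting KO replicate 1 (1.75, adjusted p = 0.0381) or 2 (1.76, adjusted p = 0.0312). Fcgrt was also higher in KO, with a log2 difference of 0.85 ± 0.27 that did not pass (adjusted p = 0.0591). Unlike those of Fcgr1 and Fcgr4, it was larger without resting KO replicate 3 (1.13, adjusted p = 0.00784), and it was 1.12 without resting WT replicate 1 (adjusted p = 0.0393). It passed in DESeq2 (0.86, adjusted p = 0.022), limma-voom (1.28, adjusted p = 0.000189) and with no low-count filter (0.86, adjusted p = 0.0344), the last of which also called Fcgr4 (1.39, adjusted p = 0.0385). Fcgr2b (0.24 ± 0.19, adjusted p = 0.493), Fcer1g (0.17 ± 0.24, adjusted p = 0.732) and Fcgr3 (0.08 ± 0.19, adjusted p = 0.852) had intervals that reach from -0.34 to 0.68 at most. The part of the interferon response in the Fcgr1 difference was not tested.

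With LPS, Fcgr2b was higher in KO at 447 ± 39.2 CPM than in WT at 272 ± 47.4, and the lowest KO library (403 CPM) was above the highest WT library (320 CPM). The log2 difference was 0.72 ± 0.19 (adjusted p = 0.0372). Fcgrt was at 94.99 ± 9.56 CPM in KO and 46.1 ± 9.21 in WT, also without overlap, with a log2 difference of 1.04 ± 0.27 (adjusted p = 0.0372), or 2.06-fold. Both estimates were steady and both calls were not. Without any 1 of the 6 libraries the Fcgrt difference was 0.89 to 1.15 and failed the threshold each time (adjusted p from 0.0616 to 0.196), and that of Fcgr2b was 0.60 to 0.85 and passed only without WT replicate 3 (adjusted p = 0.0367, otherwise up to 0.203). Resting KO replicate 3 is not among these libraries. The interferon list summed to 17807, 24080 and 18729 CPM in KO replicates 1 to 3 with LPS and to 12007, 5691 and 25721 CPM in those of WT. Its part in these differences was not tested. Fcgr3 (0.42 ± 0.20, adjusted p = 0.262), Fcgr4 (0.55 ± 0.47, adjusted p = 0.61), Fcgr1 (0.35 ± 0.48, adjusted p = 0.771) and Fcer1g (0.23 ± 0.24, adjusted p = 0.685) were not called.

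The 3′F allele was compared with WT, which it shares as a control with KO, and with KO. Against WT 0 of 6 members were called at rest, where 0% of all genes were, and 0 of 6 with LPS, where 0.00881% were, and 0 members had an unadjusted p under 0.05 in either state. Of the 11357 genes tested, 557 had one at rest and 106 with LPS. DESeq2 and limma-voom also called 0. At rest the log2 differences of 3′F from WT ran from -0.40 for Fcer1g to 0.37 for Fcgr1, and with LPS from -0.37 for Fcgr4 to 0.14 for Fcgr2b. The 95% intervals say how much could be missed: with LPS that of Fcgr2b was -0.26 to 0.53 and that of Fcgrt -0.65 to 0.50, while those of Fcgr1 (-1.08 to 0.95) and Fcgr4 (-1.37 to 0.62) were wider. The signs of the differences with LPS of Fcgr1, Fcgr3, Fcgr4 and Fcgrt turned when 1 library was left out.
Set directly against 3′F, resting KO cells had 0 members called, where 12.9% of all genes were called in either direction. An unadjusted p under 0.05 was reached by 5 of the 6 members and by 3563 of the 11357 genes tested. DESeq2 called 1 member and limma-voom with quality weights 2. The largest of those differences was 1.42 ± 0.49 for Fcgr1 (adjusted p = 0.0651). It was 0.18 without resting KO replicate 3 (adjusted p = 0.706) and passed without resting KO replicate 1 (1.78, adjusted p = 0.0314) or 2 (1.81, adjusted p = 0.0198). Without resting KO replicate 3, Fcgr2b (0.69, adjusted p = 0.029) and Fcgrt (0.99, adjusted p = 0.0175) were called instead.
With LPS, Fcgrt was higher in KO than in 3′F by 1.12 ± 0.27 (adjusted p = 0.0303), the only member called, against 1.51% of all genes higher and 2.37% lower. Its 3 KO libraries, at 87.6 to 106 CPM, were all above the 33.1 to 50.2 CPM of 3′F, and the call was lost without any 1 of the 6 libraries (0.97 to 1.24, adjusted p from 0.0515 to 0.151). For Fcgr2b the difference was 0.58 ± 0.19 (adjusted p = 0.099), with each KO library above each 3′F library. Limma-voom called 4 members there and the fit of only the groups compared 5, both of them Fcgrt, Fcgr2b (0.55 in each), Fcgr3 (0.44 and 0.41) and Fcgr4 (0.93 and 0.89), and the latter also Fcgr1 (0.39, adjusted p = 0.0417). The share of all genes that either of these fits called was not taken, so their counts of members have no background beside them.

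**Figure D5:**
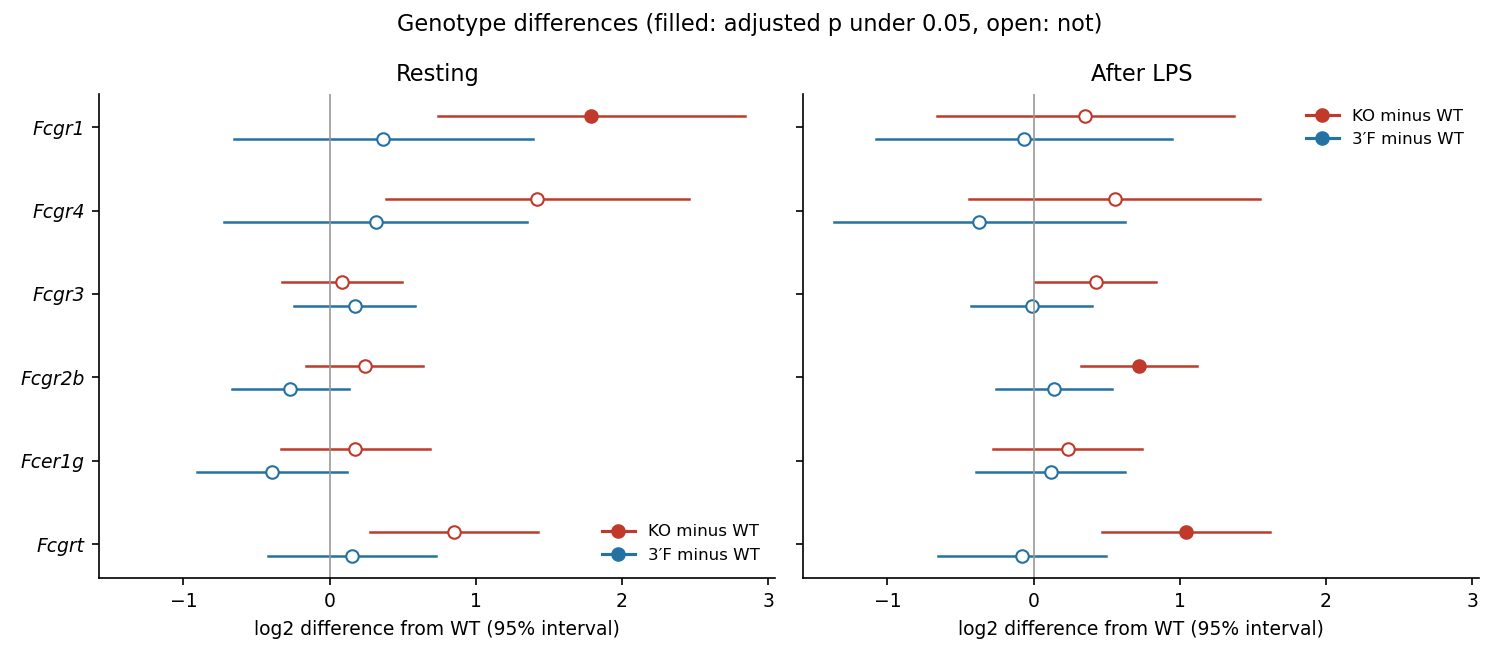
Log2 difference of KO and of 3′F from WT for each member, at rest and with LPS, with 95% intervals; filled points passed an adjusted p of 0.05. KO is higher in Fcgr1 at rest and in Fcgr2b and Fcgrt with LPS, and every interval of 3′F includes 0.

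The genes that work with these receptors were described by lists chosen with earlier results of these data known. With LPS 16.3% of all genes tested rose and 12.3% fell in WT, 14.3% and 12.6% in KO, and 17.2% and 14% in 3′F. These shares belong beside the LPS counts of each list below. Of 24 genes of ITAM signalling, all tested, 11 rose and 3 fell with LPS in WT cells, 11 rose and 4 fell in KO, and 12 rose and 3 fell in 3′F, with medians of 0.16, 0.17 and 0.48. Those that rose in WT included the Src family kinases Src (3.17 ± 0.32, adjusted p = 3.33e-06) and Fgr (1.99 ± 0.27, adjusted p = 6.67e-05), a family that phosphorylates the ITAM. Tec, a kinase downstream of PI3K, fell by 0.82 ± 0.10 on the log2 scale, the adaptor Lat2 by 0.64 ± 0.14 and the exchange factor Vav3 by 0.66 ± 0.23, and the call of Vav3 (adjusted p = 0.041) was lost without any 1 of the 6 libraries.
Of 15 genes of ITIM and other inhibitory signalling, 14 were tested, and 6 rose and 2 fell in WT, 7 rose and 1 fell in KO, and 8 rose and 1 fell in 3′F. The transmembrane adaptor Pag1 (1.22 ± 0.15), the adaptor Sla (1.18 ± 0.17) and Ptpn6, the phosphatase SHP-1 (1.08 ± 0.15), rose most in WT. The ubiquitin ligase Cblb fell by 0.78 ± 0.19 (not called without resting WT replicate 2, adjusted p = 0.0505), and Inppl1, the phosphatase SHIP2, by 0.52 ± 0.12.
Of 18 receptors and other partners of Fcer1g and Tyrobp, 14 were tested, and 7 rose and 1 fell in WT, 5 rose and 2 fell in KO, and 7 rose and 2 fell in 3′F. Clec4e, the receptor Mincle that signals through Fcer1g, rose by 4.14 ± 0.33 in WT, Trem3 by 3.19 ± 0.69 and Clec5a by 1.70 ± 0.17, while Trem2 fell by 0.54 ± 0.17 (adjusted p = 0.0261), a call lost without resting WT replicate 1 or any 1 WT library with LPS. Trem3 was at a low level, with means of 0.29 CPM in resting WT and 2.86 CPM with LPS. Tyrobp, the other ITAM adaptor of macrophages, had a log2 fold change of -0.05 ± 0.14 in WT (adjusted p = 0.837), -0.08 ± 0.14 in KO and -0.23 ± 0.14 in 3′F, and none was called. Without resting KO replicate 3 the calls of the KO response, in either direction, went from 15 to 14 for the ITAM list, from 8 to 10 for the ITIM list and from 7 to 8 for the partners. The share of all genes called without that library was not taken.

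Of 12 other Fc-binding proteins, 4 were tested, and Trim21, the cytosolic antibody receptor, was the 1 called in each genotype, with rises of 1.58 ± 0.39 in WT, 1.23 ± 0.39 in KO and 1.54 ± 0.40 in 3′F. B2m, the partner chain of FcRn, rose by 1.19 ± 0.26 in WT, 0.85 ± 0.26 in KO and 1.43 ± 0.27 in 3′F, unlike the Fcgrt heavy chain, whose values were below 0 in each. Resting KO libraries were spread widely, from 26.4 to 106 CPM for Trim21 and from 689 to 1470 CPM for B2m. The KO responses of Trim21 and B2m were not computed without resting KO replicate 3. In the list of 4 MHC class I-like genes that holds B2m, 1 rose and 1 fell in each genotype. Without resting KO replicate 3 the calls of the KO response were 4 of 4 in that list and 2 of 4 among the other Fc-binding proteins. The share of all genes called without that library was not taken. The MHC class I-like gene that fell in WT was Mr1, by 0.61 ± 0.18 (adjusted p = 0.0174), a call lost without resting WT replicate 1 or 3 or WT replicate 2 or 3 with LPS.

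In KO against WT at rest, where 5.12% of all genes were higher and 4.27% lower, 5 of 24 genes of ITAM signalling were higher and 0 lower, 4 of 14 tested of ITIM signalling were higher and 0 lower, and 4 of 14 partners were higher and 1 lower. None of the 4 other Fc-binding proteins or of the 4 MHC class I-like genes was called. Without resting KO replicate 3 the calls in either direction numbered 3, 1, 5, 1 and 0 for the 5 lists, and the share of all genes was not taken there. Fgr (1.57 ± 0.27, adjusted p = 0.003) and Lcp2 (0.81 ± 0.17, adjusted p = 0.00854), the adaptor SLP-76, were among those higher in the ITAM list, and both calls remained without any 1 library. With only the groups compared in the fit neither was called (adjusted p = 0.0705 and 0.0811), nor were Pag1, Dok3, Clec4e and Sirpb1a below (adjusted p from 0.0964 to 0.194). Inppl1 (0.68 ± 0.12), Pag1 (0.63 ± 0.15) and Dok3 (0.50 ± 0.14) led the ITIM list, of which Inppl1 kept its call without any 1 library. Pag1 lost its call when resting KO replicate 3 or either of WT replicates 1 and 2 was left out (adjusted p up to 0.063), and Dok3 when resting KO replicate 3 or either of WT replicates 1 and 3 was (0.30 without the KO library, adjusted p up to 0.156). With the replicate number as a block Dok3 was not called either (0.50, adjusted p = 0.053).
Clec4e (1.35 ± 0.30), Clec4n (1.21 ± 0.24), which is Dectin-2, and Sirpb1a (0.90 ± 0.22) were the highest partners in resting KO cells. Clec4e was not called without resting WT replicate 2 (1.18, adjusted p = 0.059), and Sirpb1a lost its call without KO replicate 2 or either of WT replicates 1 and 2 at rest (adjusted p up to 0.093). Without resting KO replicate 3 the Clec4e difference was smaller, at 0.85, and still passed (adjusted p = 0.0377). Itgam, the αM chain of the complement receptor CR3, read from the more abundant of 2 rows with that symbol (ENSMUSG00000030786), was lower by 0.71 ± 0.15 in log2 difference (adjusted p = 0.0082), and that call remained without any 1 library. The value of the other Itgam row is not given here, in this state or with LPS. B2m gave 0.78 ± 0.26 (adjusted p = 0.0736, called without resting KO replicate 2 at 0.98 and an adjusted p of 0.0321), Tyrobp 0.20 ± 0.14 (adjusted p = 0.416) and Trim21 0.79 ± 0.39 (adjusted p = 0.236), which turned to -0.13 without resting KO replicate 3. Without that same library B2m gave 0.36 (adjusted p = 0.372).

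With LPS, where 1.89% of all genes were higher in KO than in WT and 2.9% lower, the lists gave 1 higher and 1 lower of 24 for ITAM signalling, 2 higher and 0 lower of 14 for ITIM signalling, 1 higher and 1 lower of 14 partners, and 0 of the 4 other Fc-binding proteins and 0 of the 4 MHC class I-like genes. Lcp2 was higher (0.79 ± 0.17, adjusted p = 0.0138), and Blnk, an adaptor best known from B cells, was lower by 1.10 ± 0.24 in log2 difference (adjusted p = 0.0146). Sla (0.86 ± 0.17, adjusted p = 0.00775) and Inppl1 (0.52 ± 0.12, adjusted p = 0.0244) were higher, as was Sirpb1a (0.87 ± 0.22, adjusted p = 0.0322), and Itgam was lower by 0.59 ± 0.15 (adjusted p = 0.0315). Of these 6 calls, that of Sla remained without any 1 of the 6 libraries. That of Inppl1 was lost with no low-count filter (adjusted p = 0.0581). Those of Lcp2, Blnk and Inppl1 were lost without WT replicate 2, KO replicate 1 or KO replicate 2, that of Sirpb1a remained only without WT replicate 3 and that of Itgam only without WT replicate 2, with adjusted p up to 0.144 for the first 3 and up to 0.173 for the last 2. B2m (0.44 ± 0.26), Tyrobp (0.17 ± 0.14) and Trim21 (0.45 ± 0.38) were not called. Between 3′F and WT 0 genes of the 5 lists were called in either state.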

How the data were processed

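RNA was measured in 18 libraries of mouse BMDMs. The deposited values are raw counts per protein-coding gene: the authors depleted ribosomal RNA, prepared directional libraries, trimmed adapters with cutadapt 1.8.3, removed ribosomal reads, aligned to mm10 with HISAT2 2.1.0 and counted reads over Gencode M15 genes with featureCounts 1.5.3. The table's exon length column, a value in bases per gene, was used for levels per kb. In R 4.3.3, genes were kept by filterByExpr of edgeR 4.0.16 (11357 genes), scaled by TMM and fitted in 1 edgeR quasi-likelihood model with 6 groups and no covariate, for 11 comparisons. Tests were two-sided, with Benjamini-Hochberg adjustment over all genes tested and calls at an adjusted p under 0.05. SE is the log2 fold change over the square root of F. Ratios were tested by exact permutation of the states within genotypes. With 3 libraries against 3 an exact permutation cannot go below p = 0.1. The labels name 3 mice of each genotype but do not tie a library to a mouse, so p-values measure the spread between these cultures. Replicates of a group differed by more than counting noise (chi-square).

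Alternatives were DESeq2 1.42.0, its size factors, no low-count filter, limma-voom 3.58.1 with quality weights, only the groups compared, each library left out, and a replicate block. Members and lists were chosen with earlier results of these data known. Named list genes were up to 3 higher and 3 lower per list with the largest log2 change among called genes in the WT response and in KO against WT, with B2m, Tyrobp and Trim21 always named. A gene that this rule names is not reported here. Sequences are those of RefSeq (GRCm38.p6) and Gencode M21. Positions of genes are those of Gencode M21.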

Additional observations from a re-analysis of the deposited data

How the results depend on the processing

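The cause of each change below was not tested. Shares of all genes called were taken for the main fit only, so the counts of other settings have no background beside them. The members called in KO against WT at rest (1) numbered 2 in DESeq2, 3 with no low-count filter, 0 with only the groups compared and 0 to 2 with 1 library left out. For KO against 3′F at rest (0) they numbered 1 in DESeq2, 1 with no filter, 2 in limma-voom and 0 to 2 with 1 library left out, and with LPS (1) they numbered 4 in limma-voom, 5 with only the groups compared and 0 without any 1 library. For KO against WT with LPS (2) the range with 1 library left out was 0 to 1, and the 6 other settings gave 2. For the KO response to LPS (3) limma-voom called 5, and the range was 1 to 4. With 1 library left out the WT response (3) ranged from 3 to 4 and the 3′F response (4) from 3 to 5. DESeq2 and limma-voom each called 4 members in the WT response and 6 in the 3′F response, and in the latter the fit of only the groups compared called 6 and that with no filter 5. The counts of 0 for 3′F against WT and for both interactions were 0 in every setting run.

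Without resting KO replicate 3 the log2 ratio of Fcgr4 to Fcgr2b changed with LPS by 0.13 in place of -0.18, and that of Fcgr1 to Fcgr2b by 0.54 in place of 0.20. With 1 library left out these ran from -0.34 to 0.13 and from 0.036 to 0.54, and the ratio of Fcgr3 to Fcgr2b from -2.31 to -2.20.

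Signs turned only in values that were not called. Fcgr3 in the KO response was -0.00305 in DESeq2, -0.00299 with its size factors, -0.023 with no filter, -0.14 in limma-voom and -0.015 with only the groups compared. In limma-voom Fcgr3 in KO against 3′F at rest was 0.064, Trim21 in KO against WT at rest -0.039, and the KO interactions of Fcgr4 and Fcgrt 0.36 and -0.33. With 1 library left out, the log2 difference with LPS in WT ran from -0.11 to 0.0097 for Tyrobp, and that in KO from -0.15 to 0.16 for Fcgr3. In KO against WT at rest it ran from -0.031 to 0.28 for Fcgr3, -0.090 to 0.49 for Fcer1g and -0.13 to 1.12 for Trim21, and in KO against 3′F at rest from -0.20 to 0.10 for Fcgr3. In 3′F against WT it ran from -0.00024 to 0.41 for Fcgrt at rest, and with LPS from -0.38 to 0.29 for Fcgr1, -0.20 to 0.14 for Fcgr3, -0.72 to 0.26 for Fcgr4 and -0.24 to 0.077 for Fcgrt. The KO interaction ran from -1.22 to 0.18 for Fcgr4, -0.26 to 0.32 for Fcer1g and -0.091 to 0.38 for Fcgrt.

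The labels do not say whether a replicate number marks a mouse, and the pairing could not be read from the data: the deviations of resting and LPS libraries of 1 genotype and number correlated at 0.0283 to 0.318, above 0 in each of 9 pairs and not over 0.1 in all. With the replicate number as a block, 6 members in place of 4 were called in the 3′F response, and the other comparisons kept their counts. Under the block the KO response of Fcgr1 passed (1.801, adjusted p = 0.0150) and that of Fcer1g did not (adjusted p = 0.0645), the difference of 3′F from WT with LPS in Fcgr1 was 0.070, and the KO interaction of Fcer1g was -0.019. For the ratio of Fcgr3 to Fcgr2b the exact sign-flip test over numbers gave an adjusted p of 0.0117.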
